A study of Mus musculus with 18 samples.

Results

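Glycolysis splits glucose into pyruvate in the cytosol, and the 10 genes described here encode its entry, its regulated steps and its exit. They are Slc2a1 (the glucose transporter GLUT1), Hk1 and Hk2 (hexokinases), Pfkl and Pfkp (phosphofructokinase subunits), Pgk1 (phosphoglycerate kinase), Pgam1 (phosphoglycerate mutase), Pkm (pyruvate kinase), and Ldha and Ldhb (lactate dehydrogenase subunits). They were selected by gene symbol, and all 10 were found among the 55487 genes of the count table and passed the low-count filter of each comparison.

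RNA was sequenced from ES-E14TG2a mouse embryonic stem cells (mESCs) of the IκBα-WT and IκBα-KO genotypes. IκBα, encoded by Nfkbia, is an inhibitor of NF-κB. The KO clones carried a CRISPR deletion made with guides against exon 1 of Nfkbia, and the WT clones had received a non-targeting scrambled guide, so each replicate was a separate single-cell clone. Undifferentiated mESCs (3 WT and 3 KO clones) grew on gelatin in serum with LIF at time 0 hr, and embryoid bodies (EBs) grew in suspension in serum-containing medium with no LIF for 48 hr or 96 hr, with 6 libraries at each time. By the labels, 3 of the 6 EB libraries at each time were WT and 3 were KO. The EB columns of the table carried clone codes (D4, E14, E2, E3, H7 and H9) that no label ties to a genotype. EB libraries were therefore compared by stage alone, each stage mean covered both genotypes, and IκBα-KO was compared with IκBα-WT only in mESCs.

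Mouse ES cells in serum and LIF are known to rely strongly on glycolysis and to secrete lactate, and the balance of glycolysis and oxidative metabolism shifts as pluripotency is left. Hexokinase, phosphofructokinase and pyruvate kinase catalyse the steps that are in effect irreversible. Many glycolytic genes are direct targets of the hypoxia-inducible factors (HIF) and of Myc, and lactate dehydrogenase returns pyruvate to lactate when glycolytic flux is high. Ldha favours lactate formation, whereas Ldhb favours the reverse reaction.

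Library totals were between 28287582 and 40904247 counts. Nfkbia itself was at 34.6, 34.9 and 25.1 CPM (read counts scaled to the library size) in the 3 WT mESC clones and at 10.2, 9.42 and 10.3 CPM in the 3 KO clones. The KO clones were all below the WT clones for this gene, with a log2 fold change of -1.67 ± 0.14 (SE, adjusted p = 0.00489, edgeR quasi-likelihood test). Of 10 naive and general pluripotency markers, 7 were lower at 48 hr than in mESCs and none was higher. All 7 formative markers, including Fgf5 and Otx2, were higher. Mesendoderm markers summed to between 16.3 and 1561 TPM (a level that corrects for transcript length) in the EBs at 96 hr, so these libraries differed widely among themselves. From 48 hr to 96 hr, 9 of 10 mesendoderm markers and 4 of 7 blood and endothelium markers were higher and none was lower. At the same step 2 of 4 fibroblast markers and 1 of 6 extraembryonic endoderm markers were higher and none lower, with list medians of 1.52 and 1.64 on the log2 scale, and 1 of 5 neural markers was lower and none higher, with a median of -0.88. With the clone code as a block, 7 mesendoderm markers were higher and none lower, 1 blood and endothelium marker was higher and 1 lower, and 2 neural markers were lower. The part of these markers in the stage differences below was not tested. In bulk RNA, fewer cells of a type and less RNA per cell cannot be told apart.

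Per unit of length, Pkm was the most abundant of the 10 transcripts at each stage, with a mean of 1662 TPM in mESCs, 1764 TPM in EBs at 48 hr and 2628 TPM at 96 hr. Ldha, at a mean of 1373 TPM, and Pgk1, at 1109 TPM, followed in mESCs. Hk1 was the least abundant throughout, at a mean of 21.1 TPM in mESCs, 15.9 TPM at 48 hr and 20.8 TPM at 96 hr. The summed level of the 10 genes was between 4639 and 6938 TPM in mESCs, between 3190 and 5187 TPM in EBs at 48 hr and between 6621 and 11101 TPM in EBs at 96 hr. The sum thus overlapped between mESCs and EBs at 48 hr, whereas each EB library at 96 hr lay above each one at 48 hr.

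**Figure D1:**
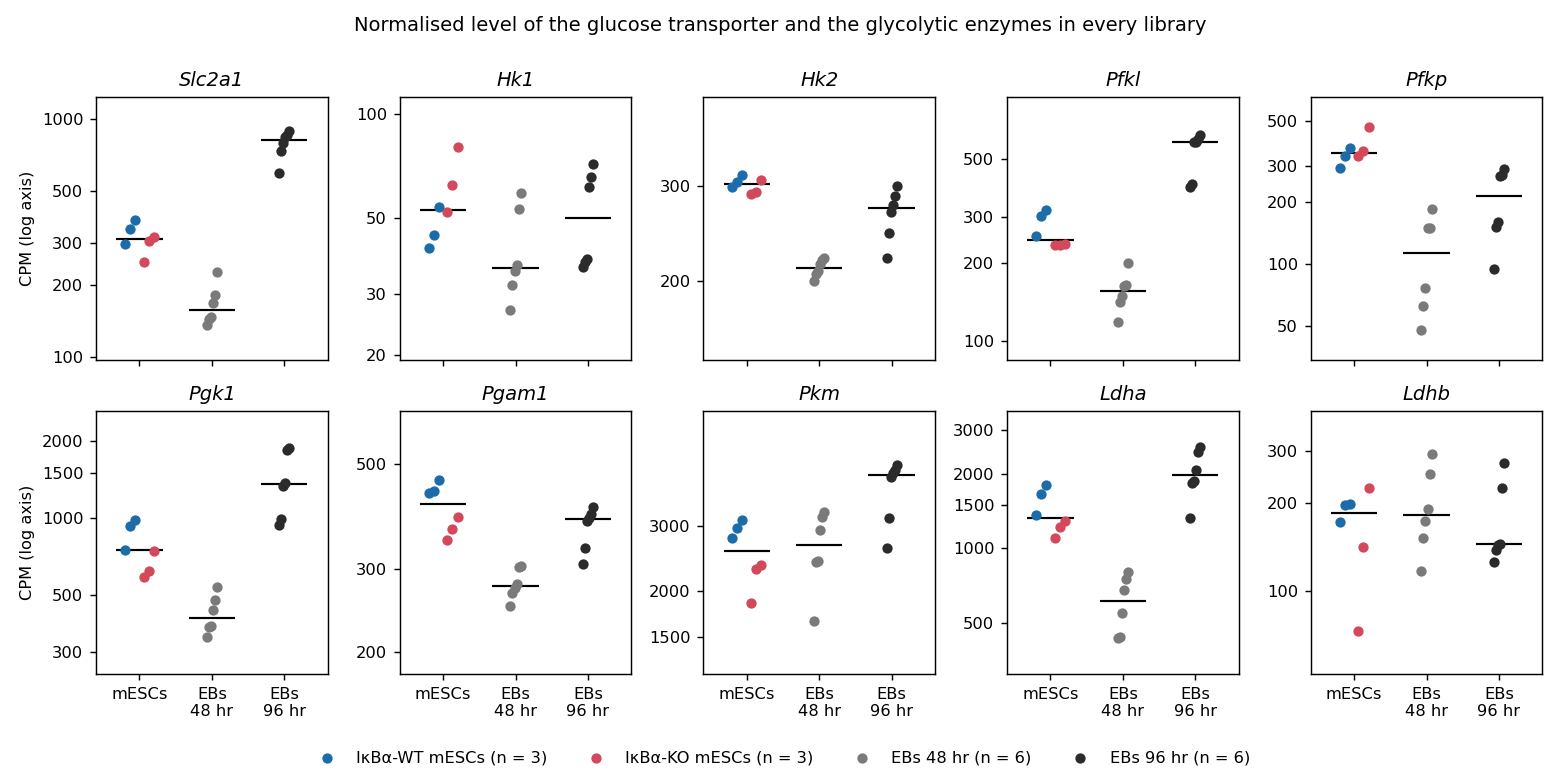
Each point is 1 library, on a log axis of CPM, by stage (mESCs, then EBs of 48 hr and of 96 hr), with blue and red for WT and KO mESCs, and each black line is the stage median over 6 libraries. Slc2a1, Pfkl, Pgk1 and Ldha have their lowest median at 48 hr and their highest at 96 hr, whereas Ldhb overlaps at all stages.

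Slc2a1, Pfkl, Pgk1 and Ldha were the members with a log2 difference above 1 between the EB stages, and the 250 bases before their annotated start sites are printed here for that reason. The sequences are from RefSeq on GRCm38.p6, run 5′ to 3′ on the strand of the gene, and come from the most upstream of the annotated windows where a gene has several. Capitals mark ACGTG on either strand (CACGT on the opposite one), and CACGTG, an E-box to which Myc can bind, is covered by overlapping matches on both strands. ACGTG is a form of the core of the element that HIF binds, and the other form, GCGTG, was neither marked nor counted.
Slc2a1, chr4:119108495-119108744, strand +: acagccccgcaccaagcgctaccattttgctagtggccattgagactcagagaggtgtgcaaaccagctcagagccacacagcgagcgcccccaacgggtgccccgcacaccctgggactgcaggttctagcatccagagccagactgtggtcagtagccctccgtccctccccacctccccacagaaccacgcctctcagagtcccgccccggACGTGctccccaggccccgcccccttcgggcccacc
Pfkl, chr10:78009808-78010057, strand -: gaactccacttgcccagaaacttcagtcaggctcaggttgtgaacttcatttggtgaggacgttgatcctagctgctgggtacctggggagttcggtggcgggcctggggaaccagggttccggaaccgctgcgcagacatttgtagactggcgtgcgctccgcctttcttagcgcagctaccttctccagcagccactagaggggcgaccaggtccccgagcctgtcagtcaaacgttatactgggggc
Pgk1, chrX:106186850-106187099, strand +: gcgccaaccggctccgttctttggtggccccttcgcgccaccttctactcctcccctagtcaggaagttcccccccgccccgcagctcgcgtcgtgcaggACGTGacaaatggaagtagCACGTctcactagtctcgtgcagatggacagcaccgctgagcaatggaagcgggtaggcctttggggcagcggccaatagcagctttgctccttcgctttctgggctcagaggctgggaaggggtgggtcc
Ldha, chr7:46845554-46845803, strand +: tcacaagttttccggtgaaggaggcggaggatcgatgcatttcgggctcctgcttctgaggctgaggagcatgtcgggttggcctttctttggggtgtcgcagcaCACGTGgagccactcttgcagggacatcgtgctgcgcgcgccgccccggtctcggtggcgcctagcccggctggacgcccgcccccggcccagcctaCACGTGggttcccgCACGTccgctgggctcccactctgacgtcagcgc
Slc2a1 held 1 match, beginning 36 bases before the start site, and Pgk1 held 2, beginning at 150 and 131 bases before it. The Ldha window held 3 separate stretches, at 145, 48 and 34 bases before the start, of which the first and the second were CACGTG. No ACGTG was found on either strand of the Pfkl window, although GCGTG occurs in it. By GENCODE, the Ldha window is intronic to a transcript that starts further upstream, and the Pgk1 window ends 1 base before the gene. The Slc2a1 and Pfkl windows overlap the first exon of a longer transcript at 1 edge. The whole Pfkl window lies within the annotated span of its gene (chr10:77986947-78010083). Over all 10 genes, 6 had ACGTG on either strand in 1 of their windows (Slc2a1, Hk2, Pgk1, Pgam1, Pkm and Ldha). The motif was present in 16.6% of all 32851 promoter windows of this length, and 18.5% of genes had it in at least 1 window. A match is a string of letters in this window and was not tied to binding.

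The first stage comparison, EBs at 48 hr against mESCs, asks how these genes changed over the first days without LIF. Medium and culture format changed together with time, so these cannot be told apart. At 48 hr, 7 of the 10 genes were lower (Slc2a1, Hk2, Pfkl, Pfkp, Pgk1, Pgam1 and Ldha) and none was higher, while 13% of the 25318 genes tested were called lower at an adjusted p under 0.05. In the same 7 genes each EB library lay below each mESC library, a separation in that direction that 8.58% of all genes showed. With a log2 fold change beyond 1 also required, 2 of the 10 (Pfkp and Ldha) were lower, beside 4.95% of all genes. Over the 10 genes the median log2 fold change was -0.62, beside 0.0043 over all genes.

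Slc2a1 (chr4:119108711-119137983) imports glucose across the plasma membrane. In mESCs it was at 298, 344 and 377 CPM in the WT clones and at 307, 250 and 318 CPM in the KO clones. The EBs at 48 hr lay between 135 and 227 CPM with a median of 157 CPM. The groups did not overlap, and the log2 fold change was -0.90 ± 0.13 (SE, n = 6 and 6, adjusted p = 3.87e-05, edgeR quasi-likelihood test).

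Hexokinase traps glucose as glucose 6-phosphate. Hk2 (chr6:82725025-82774454), the inducible form, was the least variable of the 10 genes within mESCs, lying between 289 and 313 CPM, and it lay between 199.6 and 220.2 CPM in EBs at 48 hr. That difference, -0.49 ± 0.06 on the log2 scale (adjusted p = 6.22e-06, edgeR), was small but larger than the spread within either stage. Hk1 (chr10:62268855-62379908), the constitutive form, ranged from 40.8 to 80.1 CPM in mESCs and from 27.1 to 58.9 CPM in EBs at 48 hr. Its ranges overlapped, and its log2 fold change of -0.44 ± 0.22 did not pass the test (adjusted p = 0.157, edgeR).

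Phosphofructokinase commits the sugar to glycolysis, and its liver-type subunit Pfkl and platelet-type subunit Pfkp were both lower. Pfkl (chr10:77986947-78010083) lay between 233 and 317 CPM in mESCs and between 118 and 199.6 CPM at 48 hr, with a log2 fold change of -0.73 ± 0.14 (adjusted p = 0.00062, edgeR). Pfkp (chr13:6579768-6648777) had the largest difference of the 10 genes, at -1.66 ± 0.31 (adjusted p = 0.000588, edgeR). It lay between 293 and 467 CPM in mESCs and between 47.6 and 185 CPM at 48 hr, where its spread among libraries was 3.89-fold. Both genes had every EB library at 48 hr below every mESC library.

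In the lower part of the pathway Pgk1 (chrX:106187100-106203699), which makes the first ATP of glycolysis, lay between 589 and 983 CPM in mESCs and between 343 and 538 CPM at 48 hr. Its log2 fold change was -0.84 ± 0.18 (adjusted p = 0.00183, edgeR). Pgam1 (chr19:41911923-41918660), which moves the phosphate of phosphoglycerate, went from 345 to 464 CPM in mESCs to 251 to 304 CPM at 48 hr, a log2 fold change of -0.52 ± 0.08 (adjusted p = 0.00013, edgeR). Pkm (chr9:59656368-59679375), which makes pyruvate and ATP, was not called. It ranged from 1861 to 3117 CPM in mESCs and from 1663 to 3283 CPM at 48 hr, with a log2 fold change of 0.07 ± 0.17 (adjusted p = 0.812, edgeR). The counts are per gene, so the M1 and M2 isoforms of Pkm were not separated.

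The lactate dehydrogenase subunits did not move alike. Ldha (chr7:46841475-46855627) lay between 1098 and 1797 CPM in mESCs and between 433 and 801 CPM at 48 hr, and its log2 fold change of -1.18 ± 0.18 was the second largest of the 10 (adjusted p = 9.48e-05, edgeR). Ldhb (chr6:142490249-142507957) ranged from 73.2 to 224 CPM in mESCs and from 117 to 292 CPM at 48 hr, with a log2 fold change of 0.25 ± 0.26 that did not pass the test (adjusted p = 0.533, edgeR). The ratio of Ldhb to Ldha per unit of length, with a median of 0.241 (0.141 to 0.388) in mESCs, had a median of 0.617 (0.425 to 1.41) in EBs at 48 hr. The ratios of the 2 stages did not overlap.

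**Figure D2:**
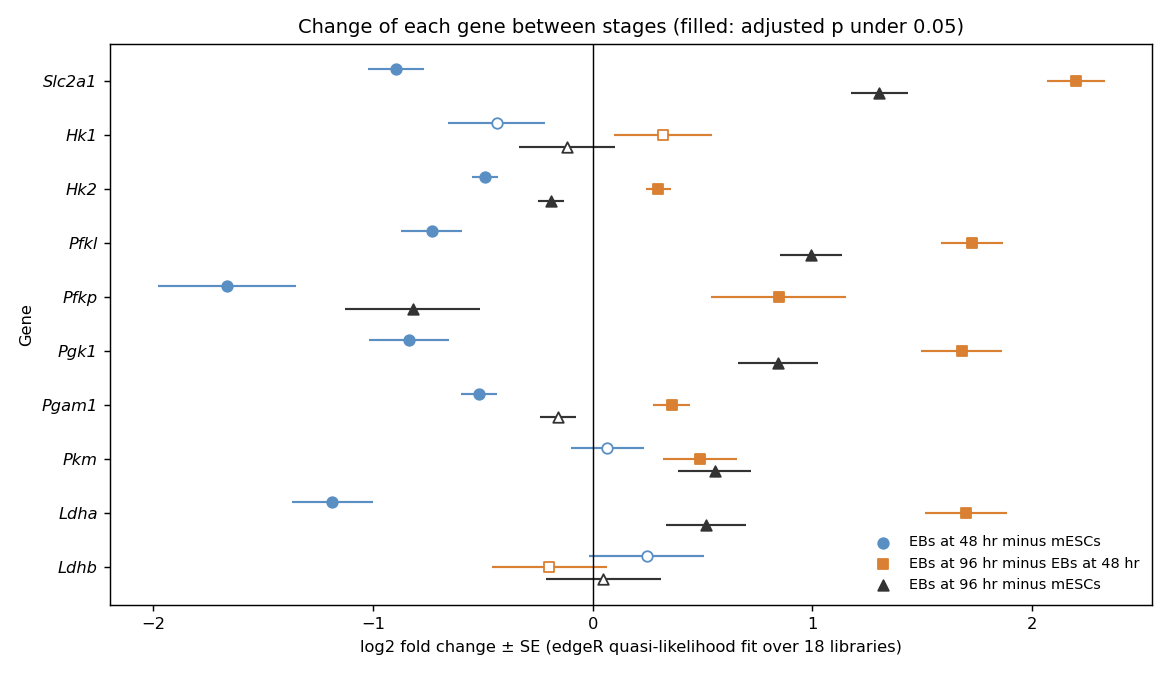
Each point is the log2 fold change of 1 gene between 2 stages, with its SE as a horizontal bar, from the fit over all 18 libraries; filled points had an adjusted p under 0.05. The 48 hr differences (blue circles) are negative for 8 of the 10 genes, and the differences from 48 hr to 96 hr (orange squares) are positive for 9 of the 10, with 96 hr minus mESCs as black triangles.

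From 48 hr to 96 hr the direction turned. The comparison of EBs at 96 hr with EBs at 48 hr called 8 of the 10 genes higher and none lower, while 13.9% of all genes tested were called higher. In 6 of the 10 (Slc2a1, Hk2, Pfkl, Pgk1, Pgam1 and Ldha) every library at 96 hr was above every library at 48 hr, a separation in that direction that 5% of all genes showed. With a log2 fold change beyond 1 also required, 4 of the 10 were higher, beside 7.1% of all genes. The median log2 fold change was 0.67 over the 10 genes and -0.03 over all genes. The libraries at 48 hr also entered the first comparison, so a fall in one and a rise in the other share those libraries.

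Slc2a1 had the largest rise. It lay between 594 and 889 CPM at 96 hr with a median of 820 CPM, and the log2 fold change from 48 hr was 2.20 ± 0.13 (n = 6 and 6, adjusted p = 1.85e-08, edgeR), a 4.59-fold difference. Within clone codes, which pair the EB libraries across times, the ratio of 96 hr to 48 hr lay between 3.27 and 6.31 and was above 1 in 6 of 6 codes.

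Pfkl, Ldha and Pgk1 had the next largest rises. Pfkl reached between 390 and 619 CPM at 96 hr, with a log2 fold change of 1.73 ± 0.14 (adjusted p = 1.29e-06, edgeR). Ldha reached between 1320 and 2562 CPM, with a log2 fold change of 1.70 ± 0.19 (adjusted p = 1.56e-05, edgeR). Pgk1 reached between 935 and 1873 CPM, with a log2 fold change of 1.68 ± 0.18 (adjusted p = 1.55e-05, edgeR). Each of these genes was higher at 96 hr in 6 of 6 clone codes, by at least 2.14-fold, and none of the ranges overlapped those at 48 hr.

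The rise was smaller in the remaining enzymes. Pgam1 lay between 307 and 406 CPM at 96 hr (0.36 ± 0.08 on the log2 scale, adjusted p = 0.0043, edgeR) and Hk2 between 221 and 299 CPM (0.30 ± 0.06, adjusted p = 0.00131, edgeR). Neither range overlapped that at 48 hr, although the lowest Hk2 library at 96 hr was within 1 CPM of the highest at 48 hr.

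Pkm and Pfkp were called by a narrow margin. Pkm lay between 2619 and 4417 CPM at 96 hr, a log2 fold change of 0.49 ± 0.17 (adjusted p = 0.0366, edgeR). Its call was lost without any 1 of D4, E2 or E3 at 48 hr or D4, E2, H7 or H9 at 96 hr, with adjusted p values between 0.05002 and 0.0787. Pfkp lay between 94.5 and 289 CPM, a log2 fold change of 0.85 ± 0.31 (adjusted p = 0.0487, edgeR), and its call was lost without any 1 of 13 of the 18 libraries (all 6 mESC libraries, E14, H7 or H9 at 48 hr, and D4, E2, E3 or H9 at 96 hr), with adjusted p values up to 0.0969. Both ranges overlapped those at 48 hr, yet both genes were higher at 96 hr in 6 of 6 clone codes, and with the clone code as a block the log2 fold changes were 0.53 ± 0.08 for Pkm (adjusted p = 0.00149) and 0.95 ± 0.10 for Pfkp (adjusted p = 0.000291, edgeR).

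Hk1 and Ldhb were not called between the EB stages. Hk1 lay between 36.1 and 71.8 CPM at 96 hr, a log2 fold change of 0.32 ± 0.22 (adjusted p = 0.297, edgeR), and with the clone code as a block the difference was 0.35 ± 0.08 with an adjusted p of 0.00996. Ldhb lay between 126 and 272 CPM, a log2 fold change of -0.20 ± 0.26 (adjusted p = 0.614, edgeR), and was higher at 96 hr in 2 of 6 clone codes. The ratio of Ldhb to Ldha per unit of length had a median of 0.174 (0.113 to 0.307) at 96 hr, below every library at 48 hr.

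Set against mESCs, EBs at 96 hr had 5 of the 10 genes higher and 2 lower, while 22.7% of all genes were called higher and 20.3% lower. With a log2 fold change beyond 1 also required, 1 of the 10 was higher (Slc2a1), beside 11.2% of all genes. Slc2a1 (1.30 ± 0.13, adjusted p = 4.29e-07), Pfkl (0.99 ± 0.14, adjusted p = 1.94e-05) and Pgk1 (0.84 ± 0.18, adjusted p = 0.00104) were higher on the log2 scale, and the first 2 of these did not overlap between the stages, a separation in that direction that 11.8% of all genes showed. Pkm (0.56 ± 0.17, adjusted p = 0.012) and Ldha (0.51 ± 0.18, adjusted p = 0.0292, edgeR) were also called higher with overlapping ranges. Pfkp was lower than in mESCs (-0.82 ± 0.31, adjusted p = 0.0391) with ranges that did not overlap, which held for 11.1% of all genes in that direction. Hk2 was also lower (-0.19 ± 0.06, adjusted p = 0.0132, edgeR), with overlapping ranges. The order of the stages was thus 48 hr, mESCs, 96 hr for Slc2a1, Pfkl, Pgk1 and Ldha, and 48 hr, 96 hr, mESCs for Pfkp and Hk2. Hk1 (-0.12 ± 0.22), Pgam1 (-0.16 ± 0.08) and Ldhb (0.05 ± 0.26) did not differ beyond their spread.

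Several of these calls rested on single libraries. That for Ldha was lost without any 1 of WT clone 1, KO clones 1, 2 or 3, or H7 or H9 at 96 hr (adjusted p between 0.0515 and 0.0736). That for Pfkp was lost without WT clones 1 or 2, KO clones 1, 2 or 3, or E14, H7 or H9 at 96 hr (adjusted p between 0.051 and 0.0998), and that for Hk2 without E14 at 96 hr (adjusted p = 0.0632, edgeR).

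The isoenzymes of a step differed in their share. Pfkp to Pfkl had a median ratio of 0.688 (0.46 to 0.997) in mESCs, 0.365 (0.145 to 0.779) at 48 hr and 0.185 (0.118 to 0.341) at 96 hr, per unit of length. The ratios at 96 hr lay below every mESC library, while those at 48 hr overlapped both. Within mESCs this ratio was between 0.46 and 0.66 in the WT clones and between 0.716 and 0.997 in the KO clones, with no overlap. The ratio was not tested, and neither Pfkp nor Pfkl was called between the genotypes (adjusted p = 0.387 and 0.078, edgeR). Of all single genes, 28.9% did not overlap between these genotypes in either direction. Hk2 to Hk1 had medians of 8.42, 8.67 and 7.50 with wide overlap, so the Hk2 transcript was the main hexokinase of this pair at each stage. Slc2a3 (GLUT3) to Slc2a1 had medians of 1.36, 1.04 and 0.803, with no overlap between mESCs and 96 hr.

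**Figure D3:**
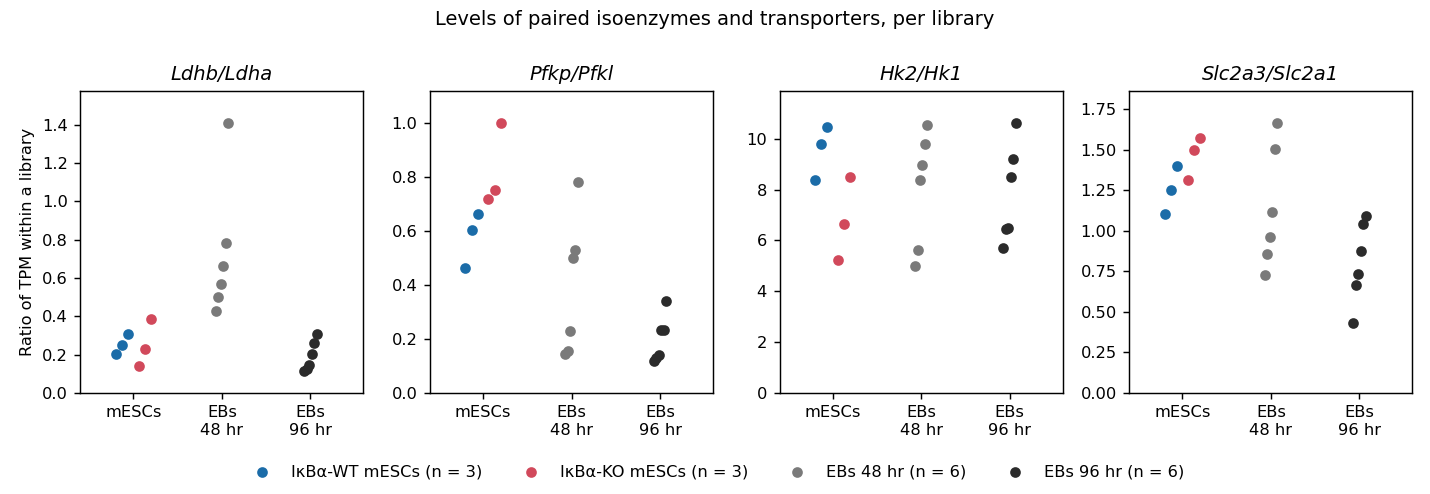
Each point is 1 library, and the vertical axes give the ratio of 2 genes in TPM within that library, starting at 0, for mESCs (blue WT, red KO) and for EBs of 48 hr and of 96 hr. Ldhb/Ldha is highest at 48 hr (0.425 to 1.41), and Pfkp/Pfkl at 96 hr (0.118 to 0.341) lies below all mESC libraries.

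The other genes of the pathway were described from a list of 25 further glycolytic genes and transporters, 24 of which were tested between stages. At 48 hr, 8 were lower and 4 higher than in mESCs. The lower genes included Eno2 (-1.96 ± 0.27) and Aldoc (-1.20 ± 0.30) on the log2 scale, and the neuronal-type glucose transporter Slc2a3 (-1.19 ± 0.19, adjusted p = 0.000118). The higher genes included Slc16a3, a lactate exporter (1.18 ± 0.16), Pfkm, the muscle-type phosphofructokinase (1.08 ± 0.13), and Gpi1, which follows hexokinase (0.55 ± 0.11, all adjusted p under 0.05, edgeR). Gapdh, often taken as a reference gene, was also higher at 48 hr (0.47 ± 0.09, adjusted p = 0.000655) and higher than in mESCs at 96 hr (0.64 ± 0.09, adjusted p = 1.97e-05, edgeR).

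From 48 hr to 96 hr, 9 of the 24 were higher and none lower. Aldoc (2.91 ± 0.31), Eno2 (2.50 ± 0.28) and Slc2a3 (1.75 ± 0.19, adjusted p = 1.55e-05, edgeR) had the largest differences. Slc2a3 lay between 654 and 1911 CPM at 96 hr, between 291 and 497 CPM at 48 hr and between 774 and 997 CPM in mESCs. Against mESCs, 10 of the 24 were higher at 96 hr and 3 lower, with Slc16a3 (2.21 ± 0.17), Aldoc (1.71 ± 0.29) and Tpi1 (1.22 ± 0.22) the largest rises.

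Genes that HIF is known to induce outside glycolysis moved in the same 2 directions. Of 17 such genes, 12 were lower at 48 hr and none higher, with a median log2 fold change of -0.80. Vegfa, an angiogenic factor (-2.10 ± 0.31), P4ha1, a collagen prolyl hydroxylase (-2.04 ± 0.20), and Bnip3, a mitophagy receptor (-1.77 ± 0.27), fell most. From 48 hr to 96 hr, 14 of the 17 were higher and none lower, with a median of 1.74, led by Adm, a vasodilator peptide (3.47 ± 0.53), Ddit4, an mTORC1 inhibitor (3.13 ± 0.33), and Ndrg1 (2.96 ± 0.45). Against mESCs at 96 hr, 11 were higher and 2 lower. Hif1a mRNA itself had log2 fold changes of -0.07 ± 0.13 at 48 hr and -0.31 ± 0.13 from 48 hr to 96 hr, neither called (adjusted p = 0.753 and 0.0851, edgeR), and was lower at 96 hr than in mESCs (-0.38 ± 0.13, adjusted p = 0.0264, edgeR). With the clone code as a block, Hif1a was called lower at 96 hr than at 48 hr (-0.27, adjusted p = 0.00535, edgeR). Oxygen and HIF protein were not measured here.

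**Figure D4:**
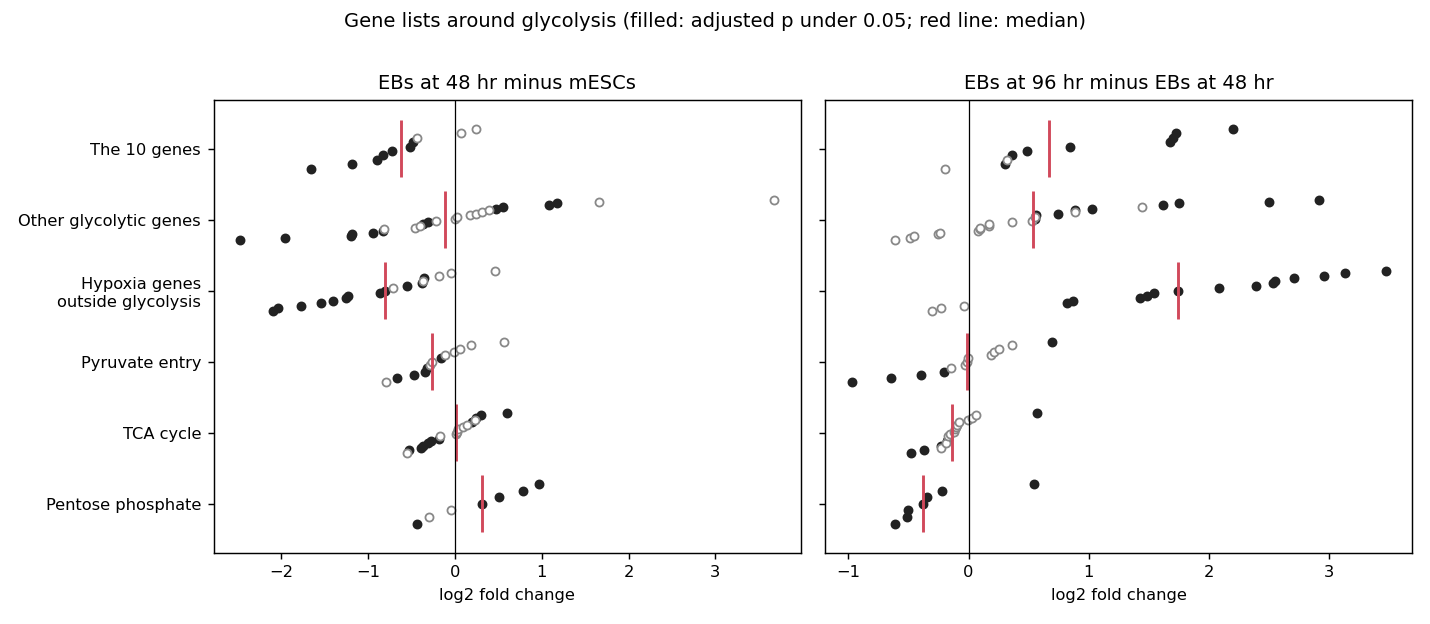
Each point is the log2 fold change of 1 gene, by gene list, for EBs at 48 hr minus mESCs (left) and EBs at 96 hr minus EBs at 48 hr (right), with filled points at an adjusted p under 0.05 and a red line at the median of the list. The hypoxia genes have a median of -0.80 on the left and 1.74 on the right, and the pentose phosphate genes have medians of 0.31 and -0.38.

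Of 9 regulators of glycolytic genes, 4 were higher and 1 lower at 48 hr. Myc, which activates many glycolytic genes, was higher at 48 hr (0.84 ± 0.21, adjusted p = 0.00468, edgeR). It was not called at 96 hr against 48 hr (-0.44 ± 0.20, adjusted p = 0.115, edgeR). The part of Myc in the levels of the 10 genes was not tested. Lin28b (0.91 ± 0.27) and Epas1, which encodes HIF2α (1.24 ± 0.43), were also higher at 48 hr, and Vhl, which marks HIF for degradation, was lower (-0.32 ± 0.09). Of the enzymes that set the level of fructose 2,6-bisphosphate, an activator of phosphofructokinase, Pfkfb3 was lower at 48 hr (-0.53 ± 0.15) and higher at 96 hr than at 48 hr (1.61 ± 0.16, adjusted p = 6.21e-06, edgeR). Tigar, which degrades that activator, fell at both steps (-0.53 ± 0.15 and -0.66 ± 0.15).

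The routes that branch from glycolysis were described in the same way. Of 7 pentose phosphate genes, 4 were higher and 1 lower at 48 hr, including Pgd (0.97 ± 0.13) and G6pdx (0.78 ± 0.11), and 6 were lower and 1 higher from 48 hr to 96 hr. Of 13 genes for pyruvate entry into mitochondria, 5 were lower and none higher at 48 hr, and 4 were lower and 1 higher from 48 hr to 96 hr, the last being Pdk2, a kinase that inhibits pyruvate dehydrogenase (0.69 ± 0.16). Of 18 tricarboxylic acid cycle genes, 4 were higher and 6 lower at 48 hr and 1 was higher and 5 were lower from 48 hr to 96 hr, with absolute log2 fold changes of at most 0.60 among those called. The lists are described by these counts beside 14.9% of all genes called higher and 13% lower at 48 hr, and 13.9% higher and 13.8% lower from 48 hr to 96 hr.

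Gluconeogenic genes gave 1 higher and 1 lower of 6 tested at each of the 2 steps, and with the clone code as a block 2 were higher and 2 lower at the second. Pck2, the mitochondrial form of phosphoenolpyruvate carboxykinase, was lower at 48 hr (-1.34 ± 0.32), and Fbp1, which reverses the phosphofructokinase step, was lower at 96 hr than at 48 hr (-2.06 ± 0.40, adjusted p = 0.00124, edgeR).

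As a description over the 18 libraries, which share stages, the log2 CPM of Slc2a1 correlated most with Pfkl (Pearson r = 0.976) and Pgk1 (0.942) among the 10 genes, and Pfkl with Pgk1 (0.976). Ldhb correlated with no other member above 0.398 (Pkm). Of 9240 genes with a mean of at least 10 CPM, those most like Slc2a1 were Ccng2 (0.976), Pgm1 (0.967), Egln1 (0.958), Aldoc (0.954) and Pfkfb3 (0.953). Those most like Ldhb were Tbcel (0.902), Ywhah (0.844), Elf1 (0.838), Fbxo42 (0.835) and Pdcd7 (0.822).

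In undifferentiated mESCs, the comparison of IκBα-KO with IκBα-WT addresses whether loss of IκBα changes these genes before differentiation. Pgam1 and Pkm were lower in the KO clones, 2 of the 10 genes, and none was higher, while 1.69% of the 21843 genes tested were called lower and 3.09% higher. In 5 of the 10 (Pfkl, Pgk1, Pgam1, Pkm and Ldha) every KO clone lay below every WT clone, a separation in that direction that 13.5% of all genes showed. With a log2 fold change beyond 1 also required, 0 of the 10 were called by edgeR, beside 0.641% of all genes called lower. The median log2 fold change was -0.31 over the 10 genes and 0.015 over all genes. Of 7 formative pluripotency markers, 5 were lower in the KO mESC clones and none was higher. Of 10 naive and general pluripotency markers, 1 was higher in them and none lower. The part of these marker differences in the values below was not tested.

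Pkm was at 2791, 2974 and 3117 CPM in the WT clones and at 2303, 1861 and 2350 CPM in the KO clones. The log2 fold change was -0.46 ± 0.10 (SE, n = 3 and 3, adjusted p = 0.0385, edgeR quasi-likelihood test). The 10 Mb of chromosome 9 around Pkm was itself lower in KO clone 2, by a median of -0.33 over 90 genes against 0.05 and 0.02 in KO clones 1 and 3, and its part in that clone's Pkm level was not tested. Relative to the WT mean, KO clones 1 and 3 were at -0.36 and -0.33 for Pkm on the log2 scale.

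Pgam1 was at 435, 439 and 464 CPM in the WT clones and at 364, 345 and 386 CPM in the KO clones, a log2 fold change of -0.30 ± 0.07 (adjusted p = 0.0431, edgeR). Both calls were lost without any 1 of the WT clones or of KO clones 1 and 3, with adjusted p values between 0.0755 and 0.195 for Pgam1 and between 0.0732 and 0.185 for Pkm. Without KO clone 2, Pgam1 had an adjusted p of 0.00439 and Pkm of 0.00104, and Pfkl (0.0383) and Pgk1 (0.0224) were called lower as well. Without WT clone 1, Pfkl (adjusted p = 0.0452) and Ldha (0.0422, edgeR) were called instead of Pgam1 and Pkm.

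Pgk1 (751, 932 and 983 CPM in WT and 618, 744 and 589 CPM in KO clones) had a log2 fold change of -0.46 ± 0.12 with an adjusted p of 0.0668. Ldha (1357, 1661 and 1797 CPM in WT and 1216, 1098 and 1294 CPM in KO clones) had -0.42 ± 0.11 with an adjusted p of 0.0643. Pfkl (254, 302 and 317 CPM in WT and 234, 233 and 236 CPM in KO clones) had -0.32 ± 0.09 with an adjusted p of 0.078 (edgeR). The groups did not overlap in these genes, and none passed the threshold in this test, whereas the DESeq2 Wald test called all of them lower (adjusted p = 0.0156, 0.0154 and 0.0343).

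The remaining members were not called and their groups overlapped. Slc2a1 had a log2 fold change of -0.23 ± 0.12 (adjusted p = 0.301) and Hk2 of -0.05 ± 0.06 (adjusted p = 0.656, edgeR). Hk1 was at 53.6, 44.5 and 40.8 CPM in WT and 62.4, 80.1 and 51.8 CPM in KO clones, a log2 fold change of 0.48 ± 0.16 (adjusted p = 0.14), and Pfkp had 0.21 ± 0.13 (adjusted p = 0.387, edgeR). Ldhb was the least even among KO clones, at 224, 73.2 and 141 CPM against 196, 198 and 172 CPM in WT clones, and its log2 fold change was -0.38 ± 0.33 (adjusted p = 0.556, edgeR).

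**Figure D5:**
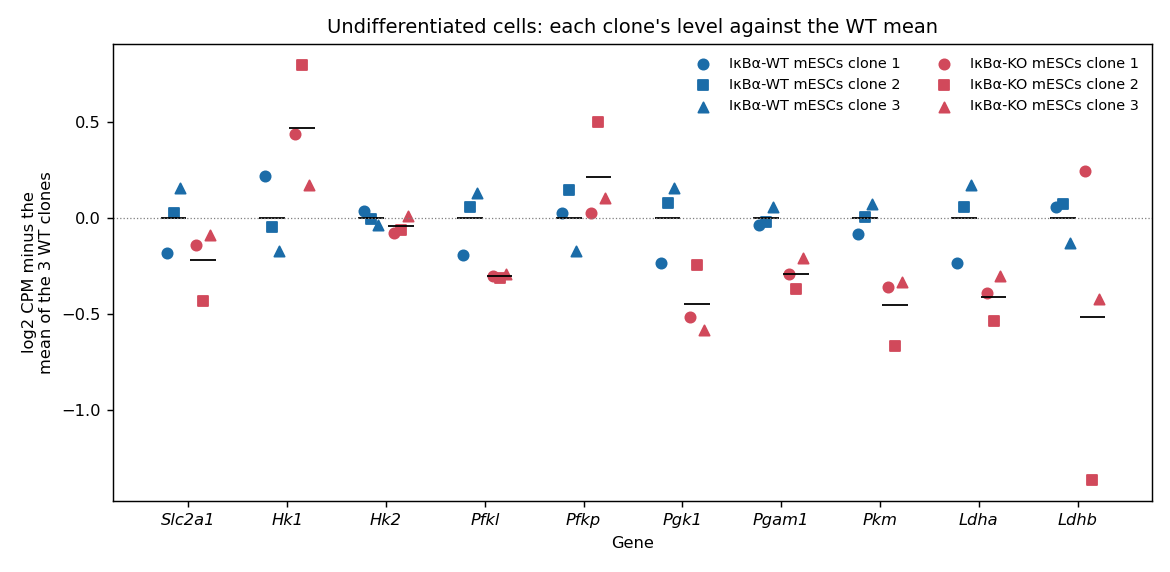
Each point is the log2 CPM of 1 undifferentiated clone minus the mean of the 3 WT clones, for each gene, with blue for WT, red for KO, a marker shape per clone number and a black line at the group mean. The KO clones lie below the WT clones without overlap for Pfkl, Pgk1, Pgam1, Pkm and Ldha, and KO clone 2 lies at -1.37 for Ldhb.

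Of the 25 other glycolytic genes, 22 were tested in mESCs, and Eno1 (enolase, -0.75 ± 0.10, adjusted p = 0.0106) and Tpi1 (triosephosphate isomerase, -0.68 ± 0.10, adjusted p = 0.0109, edgeR) were lower in KO clones, with none higher. Eno1 was at 1923, 2206 and 2305 CPM in the WT clones and at 1374, 1111 and 1361 CPM in the KO clones, so the groups did not overlap. The median of that list was 0.0081, near that of all genes. Gapdh (-0.07 ± 0.07), Slc2a3 (0.01 ± 0.10), Hif1a (-0.13 ± 0.15) and Myc (-0.25 ± 0.15) were not called.

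The hypoxia genes outside glycolysis did not share one direction in KO clones. Bnip3 was lower (-0.66 ± 0.14, adjusted p = 0.0389), whereas Ankrd37 (1.01 ± 0.15, adjusted p = 0.0139) and the prolyl hydroxylase gene P4ha2 (0.79 ± 0.10, adjusted p = 0.0085, edgeR) were higher, and the other 14 of 17 were not called. In the branching routes, Pdp2, a phosphatase that activates pyruvate dehydrogenase (0.66 ± 0.08), Idh2 of the mitochondria (0.55 ± 0.10), Pcx, pyruvate carboxylase (0.50 ± 0.09), and Fbp2 (1.49 ± 0.22) were higher in KO clones, and no pentose phosphate gene was called.

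Some reads of these genes could belong to copies or neighbours. At least 125 bases at 98% identity or more were shared with 3 other annotated genes by Pgk1, 2 each by Ldha and Pkm and 1 each by Hk1, Pfkp, Pgam1 and Ldhb, mostly pseudogenes. Exons overlapped another gene over 15.3% of the exonic length of Pkm, 5.58% of Pfkp, 2.99% of Slc2a1 and 1.84% of Hk1. The strand setting of the counting was not given in the sources used here, so reads of those overlaps cannot be assigned to a strand.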

How the data were processed

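RNA from 18 libraries was sequenced as 125-base paired-end reads. The authors trimmed reads (Trim Galore 0.6.6), aligned them to GRCm38 (STAR 2.7.8) and counted uniquely mapped reads over exons per gene (featureCounts, Subread 2.0.1, Ensembl annotation), and the deposited counts are raw. A second deposited table holds log2-scale values from the variance-stabilising transformation of DESeq2 1.38.3, used as an alternative only. Names of EB libraries matched stages and not single samples, and 0 columns were left unused.

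Counts were tested with edgeR 4.0.16 (TMM factors, robust quasi-likelihood F test, R 4.3.3) after removal of genes under 10 counts in total, with Benjamini-Hochberg adjustment over all genes and a call at 0.05. KO and WT mESCs were fitted on 6 libraries. The stages were fitted on 18 libraries with 1 mean per stage. CPM used TMM library sizes, log2 CPM a prior count of 2, and TPM the exonic length in GENCODE M21 (GRCm38). P-values for KO against WT measure the spread among these mESC clones. In the stage fit, the spread within a stage mixes both genotypes. EB libraries that share a clone code entered that fit as independent, except where the clone code is given as a block. The paper carried its selected clones of each genotype into its further experiments, so mESC and EB libraries may share clones. No label ties the mESC libraries to the clone codes, so they also entered that fit as independent. The scripts were tested on simulated data with a preset noise level. There the KO against WT test recovered 5 of 67 genes changed by 0.5 on the log2 scale and 47 of 67 changed by 1. Alternatives used DESeq2 1.42.0 and limma 3.58.1. Clone codes paired EB columns (correlations of deviations from 0.421 to 0.764 in 6 of 6 codes). No pair of libraries agreed within sampling noise.

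Named genes were the 10 members, Nfkbia, Gapdh, Slc2a3, Hif1a and Myc, the called genes of each list (at most 3 per direction by size), and the 5 most correlated genes. 1 gene that this rule selects is not reported here. Members and lists were chosen with earlier results of these data known.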

Additional observations from a re-analysis of the deposited data

How the results depend on the processing

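Gene by gene, the 7 members called at 48 hr against mESCs kept direction and call in all 25 alternatives run on single genes. Several counts moved by more than 1.5 times. With an absolute log2 fold change over 1 required, 372 genes and 0 members were called between KO and WT mESCs (1046 and 2 without it), 2422 and 2 at 48 hr against mESCs (7053 and 7), 3003 and 4 at 96 hr against 48 hr (7019 and 8), and 5278 and 1 at 96 hr against mESCs (10894 and 7). For KO against WT, the DESeq2 Wald test called 2146 genes and 5 members. The replicate block, with the labels' replicate numbers as a term, called 631 genes and 1 member, and Pgam1 was then at an adjusted p of 0.0763 (edgeR). However, the numbers do not pair clones (correlations of -0.158, 0.000393 and -0.0228). With each library's 10 Mb window median removed, the number called was close (933 genes) and its split was not, 508 higher and 425 lower, against 676 and 370 without that step (54.4% against 64.6% higher), and 2 members.

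Leaving out 1 mESC clone at a time, between 0 and 3736 genes and between 0 and 4 members were called for KO against WT. Without WT clone 2 edgeR called 0 genes, with 3104 at an unadjusted p under 0.05, and without KO clone 2 it called 3736. The cause was not tested. Without 1 library at a time, between 6196 and 7583 genes and 7 members were called at 48 hr against mESCs, between 5260 and 8589 genes and between 6 and 8 members at 96 hr against 48 hr, and between 9854 and 11746 genes and between 5 and 7 members at 96 hr against mESCs. With the EB clone codes as a block, the call of Hk1 was gained at 96 hr against 48 hr and no other member's call changed. Values near 0 that were never called turned sign without single libraries, over ranges of -0.029 to 0.17 for Pkm at 48 hr, -0.23 to 0.019 for Hk1 and -0.12 to 0.16 for Ldhb at 96 hr against mESCs. The Pfkp call at 96 hr against 48 hr was lost with DESeq2 size factors (adjusted p = 0.0516), with no low-count filter (0.0786), with mESC genotypes as separate means (0.0541) and with the 12 EB libraries alone (0.0976), and its call against mESCs with no low-count filter (0.08). The Pfkl call for KO against WT was gained with no low-count filter (0.0428).

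With 3 clones per genotype, standard errors of 0.06 to 0.33 on the log2 scale limited the mESC comparison, and no genotype comparison was made in EBs.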

Other observations

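Within the EB stages, codes D4, E2 and E3 held the 3 highest values of Pfkp and of Hk1 at both times. For Pfkp, the order within these 3 codes and within the other 3 differed between the times. For Hk1, the order within codes D4, E2 and E3 was the same at both times, and that within the other 3 was not. For Pfkp, codes D4, E2 and E3 were at 149.6, 148.9 and 185 CPM at 48 hr and at 289, 272 and 267 CPM at 96 hr. Codes E14, H7 and H9 were at 47.6, 76.3 and 62.5 CPM at 48 hr and at 94.5, 152 and 161 CPM at 96 hr. For Hk1, codes D4, E2 and E3 were at 53.1, 36.6 and 58.9 CPM at 48 hr and at 65.7, 61.5 and 71.8 CPM at 96 hr, and codes E14, H7 and H9 were at 27.1, 35.2 and 31.9 CPM and at 37.2, 36.1 and 38.1 CPM. Codes D4, E2 and E3 held the 3 lowest values of Ldha at both times. They were at 438, 548 and 433 CPM at 48 hr and at 1864, 1837 and 1320 CPM at 96 hr. Codes E14, H7 and H9 were at 754, 676 and 801 CPM and at 2078, 2562 and 2447 CPM. At 48 hr only, codes D4, E2 and E3 were also lowest for Pfkl, Pgk1 and Pkm, and at 96 hr only highest for Hk2. The share of all genes with this split was not counted. The codes have no genotype in the labels, and these values were put in no comparison.

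Ldhb was highest in code D4 at both times, at 292 and 272 CPM, and lowest in code E3, at 117 and 126 CPM. Pkm was lowest in code E3 at both times, at 1663 and 2619 CPM.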
